A study of Arabidopsis thaliana with 16 samples.

Results

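HEMA3, CHLM, AT1G74470 and Z-ISO are 4 nuclear genes of Arabidopsis thaliana for enzymes of plastid pigment synthesis, and they were measured in wild type (WT) and in the gun1-1 mutant. A gene was taken where a probe of the platform's annotation lists exactly that gene, and each of the 4 had 1 such probe, out of 692 probes with a single gene and 3439 probes in all. The genes were chosen by their place in the pathways, at a time when their differences between gun1 and WT in these same data were already known. Their differences are therefore given below as a description, with no p-value, and whether the fit over all probes called a gene is stated only as such.

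The arrays hold 8 samples of WT, ecotype Columbia 0, and 8 of the gun1-1 mutant in the same ecotype, numbered 1 to 8 in each genotype. The labels describe the mutant as impaired in plastid signaling, and name no tissue, age, light condition, growth medium or treatment. Whether the samples are separate plants is not stated, so errors describe the spread between samples, which may be technical. With bulk RNA, fewer cells of a type and less transcript per cell cannot be told apart.

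Chlorophyll and heme are tetrapyrroles and share their first steps in the plastid, where a tRNA-bound glutamate is reduced on the way to 5-aminolevulinate. Protoporphyrin IX then receives iron, towards heme, or magnesium, towards chlorophyll, and chlorophyll gets its phytyl tail from the isoprenoid pathway that also feeds carotenoids. Mutants of the gun class were found in Arabidopsis as plants that keep nuclear photosynthesis genes active when plastids are damaged, and several of the affected genes belong to tetrapyrrole synthesis. GUN1 itself is a plastid pentatricopeptide repeat protein. In order of the steps, HEMA3 encodes a form of glutamyl-tRNA reductase, CHLM the methyltransferase that acts on magnesium-protoporphyrin IX, AT1G74470 the geranylgeranyl reductase that supplies the phytyl tail, and Z-ISO the isomerase of 15-cis-zeta-carotene.

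The 4 genes did not move together. With the arrays quantile normalized, HEMA3, a gene for the first step of the tetrapyrrole pathway, was 1.60-fold higher in gun1. The carotenoid isomerase gene Z-ISO was 2.29-fold higher. CHLM was 1.51-fold higher in WT, and AT1G74470 was at nearly the same level in both genotypes, 1.06-fold higher in gun1. The groups overlapped for CHLM, AT1G74470 and Z-ISO. Of the 4, 2 were called by limma at an adjusted p of 0.05, both higher in gun1. In the same fit 31.8% of the 3419 tested probes were called, 16.6% higher and 15.2% lower in gun1. Since the genes were picked with this contrast in view, nothing is read from their count.

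Values are linear intensities. Every deposited array runs from 0 to 100 and how it was scaled is not stated. The median of the deposited columns lay between 0.130 and 0.157 in WT and between 0.216 and 0.259 in gun1, and an array held 250 to 451 zeros in WT and 193 to 274 in gun1, so the genotypes differed in overall brightness as well as in single genes. How far that brightness takes part in the differences below was not tested beyond the 4 scalings shown. The samples 7 and 8 of both genotypes stood apart from the others on the second principal component, which carried 13.5% of the variance. Without them HEMA3 (log2 difference 0.72) and Z-ISO (0.95) were still called, and CHLM (-0.56) and AT1G74470 (0.04) were still not.

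**Figure D1:**
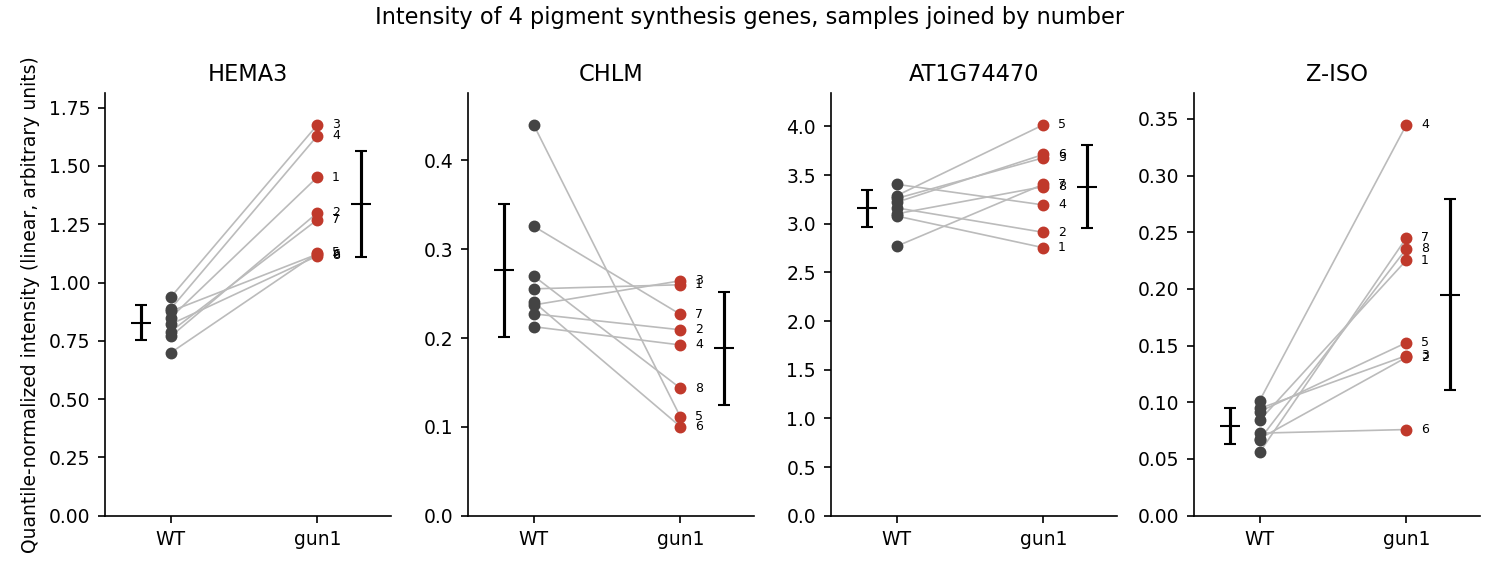
Quantile-normalized intensity (linear, arbitrary units) of each gene in the 8 WT and 8 gun1 samples. Grey lines join the samples of the same number, small digits give that number, and bars show the mean and SD. The HEMA3 groups do not overlap, with WT up to 0.937 and gun1 from 1.11, while the groups of CHLM, AT1G74470 and Z-ISO do.

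HEMA3 (AT2G31250) belongs to the family of glutamyl-tRNA reductase genes whose product catalyses the first committed step of tetrapyrrole synthesis. Its normalized intensity ran from 0.699 through a median of 0.835 to 0.937 in WT, and from 1.11 through 1.28 to 1.68 in gun1. The lowest gun1 sample thus lay above the highest WT sample, and the groups of 8 did not overlap, which holds for 8.13% of all tested probes. Means were 0.829 ± 0.0754 in WT against 1.34 ± 0.227 in gun1 (SD, n = 8 each), and the fitted difference gun1 minus WT was 0.68 on the log2 scale (SE 0.13). That difference was larger than that of 82.9% of the tested probes. It was positive in all 8 numbers, as a single direction in all 8 was for 24.9% of the tested probes. The smallest was 0.36 in number 6 and the largest 0.88 in number 4.

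The rise of HEMA3 was also present in the values as deposited. There WT samples lay between 0.618 and 0.952 and gun1 samples between 1.04 and 1.58, again with no overlap. The median log2 difference of all probes was 0.41 without scaling. The share of all probes without overlap was not computed for deposited values. The rise of HEMA3 depended on the scaling, though. When each array was divided by its own median, the difference was -0.045 on the log2 scale and the gene was not called. HEMA1 and HEMA2, the other two genes of the family, have no probe that lists one of them alone, and whether their transcripts reach the HEMA3 probe was not tested.

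CHLM (AT4G25080) acts after magnesium insertion and commits the branch further towards chlorophyll. Its normalized intensity ran from 0.213 through a median of 0.248 to 0.440 in WT and from 0.1002 through 0.201 to 0.264 in gun1. The groups overlapped, with 5 of 8 gun1 samples below every WT sample and WT sample 5 high at 0.440. Means were 0.276 ± 0.0747 in WT against 0.188 ± 0.0639 in gun1 (SD, n = 8 each). The fitted difference was -0.60 on the log2 scale (SE 0.23, 95% interval -1.07 to -0.12). That interval is not adjusted for the number of probes and comes from a fit that does not pair the numbers. Over the 8 numbers the difference within a number had an SD of 0.74. The gene fell short of the adjusted threshold for a call. It was also not called with the sample number as a block, or with consecutive numbers averaged or taken as a random block.

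The numbers differed in how CHLM compared between the genotypes. Differences on the log2 scale were 0.03, -0.12, 0.16 and -0.15 in the numbers 1 to 4, and -1.98, -1.26, -0.52 and -0.91 in the numbers 5 to 8. The first 4 numbers therefore scattered around no difference, and the other 4 were all lower in gun1. Both genotypes took part in this, with low gun1 values of 0.111, 0.1002 and 0.143 in the numbers 5, 6 and 8 and high WT values of 0.440 and 0.326 in the numbers 5 and 7. The labels give no reason to divide the numbers there, so this was not tested. Leaving out any one of 4 samples brought CHLM past the threshold. The log2 difference was -0.63 without WT replicate 4, -0.68 without gun1 replicate 1, -0.68 without gun1 replicate 3 and -0.65 without gun1 replicate 7. WT replicate 4 was the lowest of WT and those gun1 replicates the highest of gun1, so leaving them out widens the difference by itself. In the other 12 of 16 such fits CHLM was not called, and the difference shrank to as little as -0.48. In the values as deposited, WT samples of CHLM lay between 0.160 and 0.358 and gun1 samples between 0.118 and 0.332, with a difference of 0.039 on the log2 scale, so its direction turned without scaling.

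AT1G74470, the geranylgeranyl reductase gene, had a normalized intensity from 2.77 through a median of 3.19 to 3.41 in WT and from 2.75 through 3.39 to 4.02 in gun1. The gun1 samples spread on both sides of WT, with 3 above every WT sample and 1 below. Means were 3.16 ± 0.190 and 3.38 ± 0.423 (SD, n = 8 each). The fitted difference was 0.09 on the log2 scale (SE 0.11), with a 95% interval from -0.15 to 0.33, that is from 0.903-fold to 1.25-fold. The gene was higher in gun1 in 5 of 8 numbers, the numbers 3 and 5 to 8. As deposited, its range was 2.84 to 3.54 in WT and 2.68 to 3.62 in gun1. With a common median it was called lower in gun1, at a log2 difference of -0.72. Under that scaling 1551 of 3422 probes were called.

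Z-ISO (AT1G10830) encodes the enzyme that isomerizes 15-cis-zeta-carotene on the way from phytoene to lycopene. Its normalized intensity ran from 0.0558 through a median of 0.0784 to 0.101 in WT and from 0.0760 through 0.189 to 0.345 in gun1. Of the 8 gun1 samples, 7 lay above every WT sample, and sample 6 fell within the WT range. Means were 0.0794 ± 0.0159 in WT against 0.195 ± 0.0840 in gun1 (SD, n = 8 each), and the fitted difference was 1.19 on the log2 scale (SE 0.25). It was larger than that of 93.0% of the tested probes, and positive in all 8 numbers.

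The difference of Z-ISO varied more between numbers than that of HEMA3. It ranged from 0.06 in number 6 to 2.13 in number 7 on the log2 scale, with an SD of 0.71, against 0.19 for HEMA3. As deposited, WT samples lay between 0.0372 and 0.0631 and gun1 samples between 0.0901 and 0.379, with no overlap, and the log2 difference was 2.15. All probes together had a median log2 difference of 0.41 without scaling, and their share without overlap was not computed there. The WT values of Z-ISO are close to the floor of 0.0313 to which lower intensities were set, although no sample of the gene was at it. The size of its difference depended on how low values were treated. It was 0.98 with the floor at the 20th percentile, and 0.67 with 0.1 added to each value in place of a floor. Under each of these settings, and under each of the 4 scalings, Z-ISO was called higher in gun1. All of them called many probes, from 1088 of 3419 with quantile normalization to 1551 of 3422 with a common median.

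**Figure D2:**
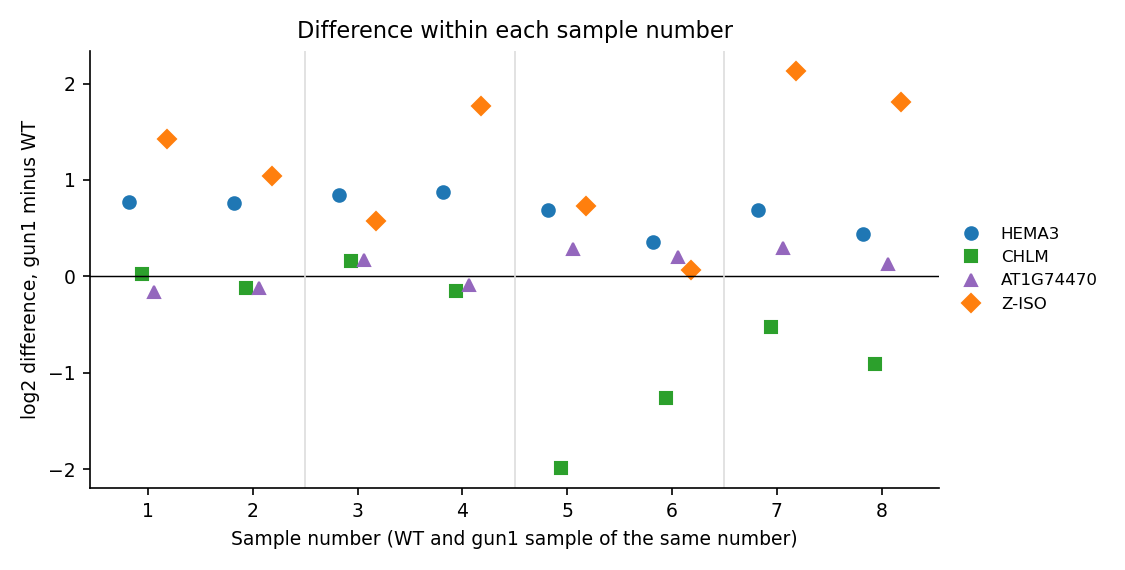
Difference gun1 minus WT (log2 of quantile-normalized intensity) for each gene between the 2 samples of the same number, with grey lines between consecutive pairs of numbers. HEMA3 and Z-ISO lie above 0 in all 8 numbers, and CHLM lies near 0 in the numbers 1 to 4 and between -0.52 and -1.98 in the numbers 5 to 8.

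Consecutive numbers of a genotype resembled each other. Deviations from the group mean were correlated across probes for samples 1 and 2, 3 and 4, 5 and 6, and 7 and 8. The mean r was 0.198 (range -0.009 to 0.356), and for other pairs within a genotype -0.198 (range -0.324 to -0.092). Deviations from a group mean sum to 0, so the second mean largely follows from the first. The comparison rests on the ranges, which do not overlap. Averaged over these pairs of numbers, the log2 difference of HEMA3 was 0.77, 0.86, 0.52 and 0.56 in order of the numbers, and that of Z-ISO 1.23, 1.17, 0.40 and 1.97. For CHLM the averages were -0.05, 0.01, -1.62 and -0.72, and for AT1G74470 -0.14, 0.04, 0.25 and 0.21. The numbers 5 and 6 thus gave the smallest difference for both genes that were higher in gun1, and the most negative one for CHLM. With consecutive numbers averaged, 4 samples against 4, HEMA3 and Z-ISO were still called.

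The scaling moved 3 of the 4 genes across 0. Over all probes the median difference on the log2 scale was -0.05 with quantile normalization, -0.06 with cyclic loess, -0.18 with a common median and 0.41 with no scaling. The probes called were 1088 of 3419, 1091 of 3439, 1551 of 3422 and 1425 of 3421 in the same order. The share of called probes that were higher in gun1 was 52.1%, 51.1%, 34.2% and 85.5%. Relative to that median, the log2 difference of HEMA3 was 0.73, 0.78, 0.14 and 0.27, and that of Z-ISO 1.25, 1.07, 1.60 and 1.73. CHLM lay at -0.54, -0.52, -0.51 and -0.37, below the median of the probes under each of the 4 scalings. AT1G74470 lay above the median with quantile normalization and cyclic loess, at 0.14 and 0.20, and below it with a common median and no scaling, at -0.54 and -0.40.

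**Figure D3:**
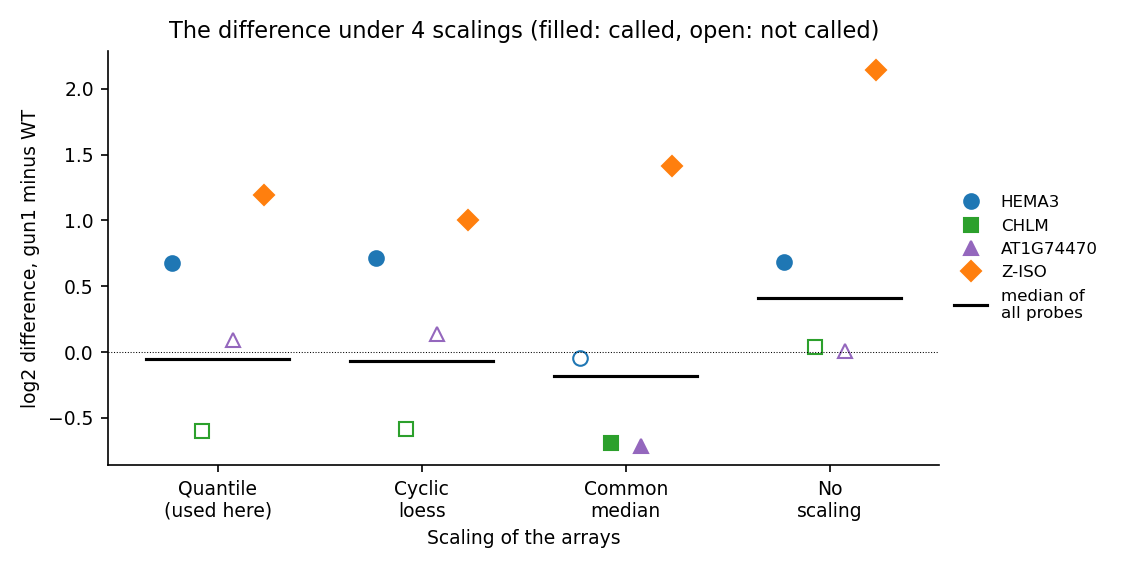
Difference gun1 minus WT (log2) of each gene under 4 scalings of the arrays, with filled symbols where the fit over all probes called the gene and black bars at the median of all probes. Z-ISO is filled and above 1.00 under all 4, and HEMA3 drops to -0.045 with a common median.

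Ratios between genes on the same array are free of any single scale factor. They were examined after the values had been seen, and they show unequal change only. How many other pairs of probes separate the groups as well was not computed. From the deposited values, the ratio of HEMA3 to AT1G74470 was higher in gun1 by 0.67 on the log2 scale. This held in 8 of 8 numbers, with no overlap between the groups. After quantile normalization, which also corrects brightness by level, this ratio was higher by 0.59 on the log2 scale in 8 of 8 numbers, with overlapping groups. HEMA3 gained on CHLM in 8 of 8 numbers under both, by 0.64 ± 0.71 on the log2 scale as deposited, with overlap, and by 1.27 ± 0.65 after quantile normalization, without it (SD over 8 numbers).

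The ratios with the dim gene Z-ISO depended on which values were used. Z-ISO over CHLM was 4.31-fold higher in gun1 as deposited and 3.46-fold higher after quantile normalization, in 8 of 8 numbers and without overlap in both. Z-ISO over AT1G74470 was 4.39-fold higher as deposited, in 8 of 8 numbers, and 2.15-fold higher after quantile normalization, in 7 of 8 numbers with overlapping groups. Z-ISO over HEMA3 was 2.76-fold higher as deposited, in 8 of 8 numbers, and 1.43-fold higher after quantile normalization, in 6 of 8 numbers. Whether Z-ISO changed more than HEMA3 therefore rests on the scaling in the numbers 3 and 6. CHLM and AT1G74470 differed in change by 0.03 ± 0.93 on the log2 scale as deposited. After quantile normalization they differed by -0.69 ± 0.87, lower for CHLM in 6 of 8 numbers. The groups overlapped in both.

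**Figure D4:**
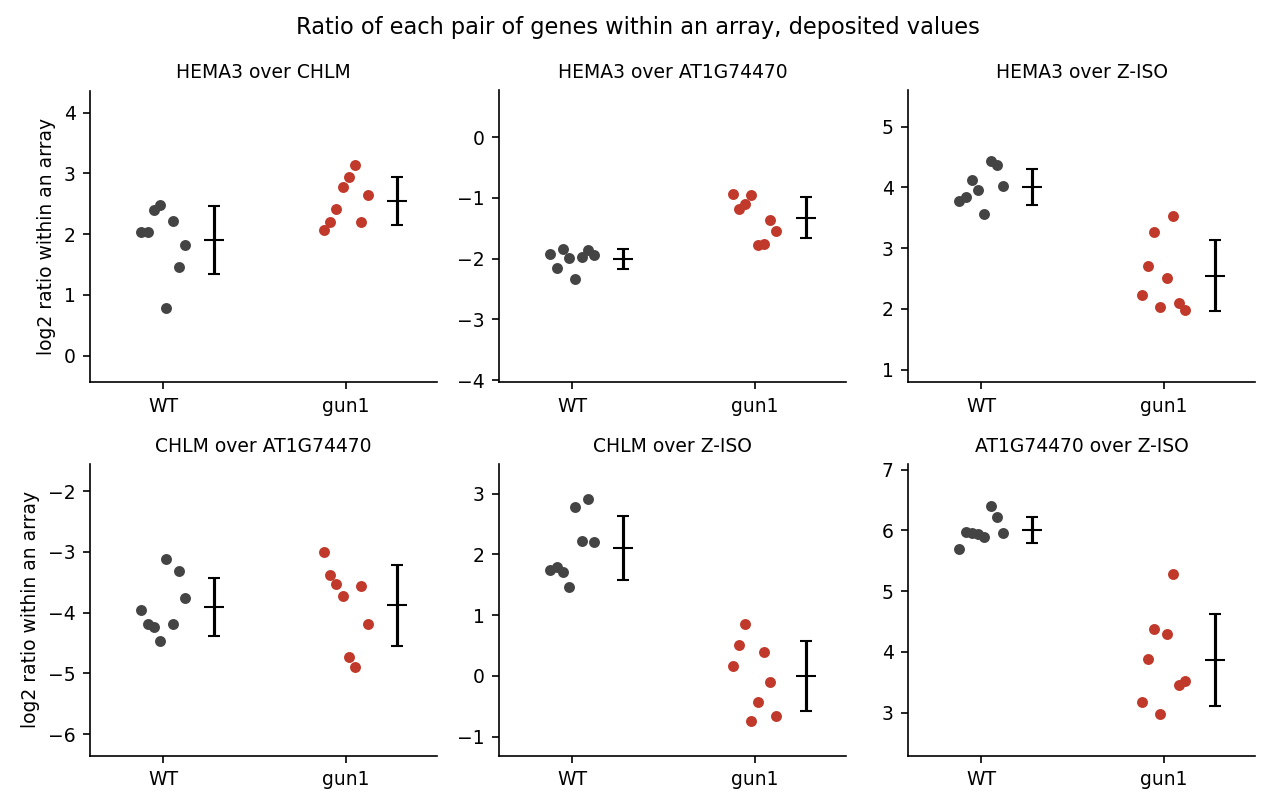
log2 ratio of each pair of genes within an array, from the deposited intensities, in 8 WT and 8 gun1 samples, each panel spanning the same range of log2 units, with bars for the mean and SD. The groups do not overlap in the 3 panels with Z-ISO and in that of HEMA3 over AT1G74470, and the means of CHLM over AT1G74470 are nearly equal, at -3.90 and -3.88.

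All 4 genes varied more between gun1 samples than between WT samples. The SD of the log2 intensity was 0.24 in gun1 against 0.13 in WT for HEMA3, 0.54 against 0.34 for CHLM, 0.18 against 0.09 for AT1G74470 and 0.68 against 0.30 for Z-ISO. Other pathway genes described below went the same way, SIRB with 0.61 against 0.32 and AT1G78620 with 0.52 against 0.48. The share of all probes with a wider spread in gun1 was not computed, and the difference in spread was not tested. Within a genotype the genes did not vary together beyond what the 8 samples can show. Of 12 correlations, 6 pairs of genes in each genotype, 0 passed after Benjamini-Hochberg adjustment of exact two-sided permutation p-values, and 3 had an unadjusted p under 0.05. AT1G74470 and Z-ISO in WT had r = 0.846 (exact permutation p = 0.00481, adjusted 0.0577) and a Spearman rho of 0.833 (exact permutation p = 0.0154, adjusted 0.185). Their r was 0.557 after the 2 samples farthest from the median of AT1G74470 were left out. With a common median it was 0.655 (exact permutation p = 0.0819, adjusted 0.278).

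The correlation of HEMA3 and CHLM had opposite signs in the 2 genotypes. In WT r was -0.775 (exact permutation p = 0.0234, adjusted 0.116) and rho -0.595 (exact permutation p = 0.132, adjusted 0.529), and r fell in size to -0.444 without the 2 samples farthest from the median of HEMA3. In gun1 r was 0.778 (exact permutation p = 0.0290, adjusted 0.116) and rho 0.762 (exact permutation p = 0.0368, adjusted 0.221), with r = 0.907 without the 2 farthest samples. With a common median r was -0.615 in WT and 0.631 in gun1 (exact permutation p = 0.0925 and 0.0882). Under either scaling neither genotype's r passed the adjustment, and the difference between the genotypes was not tested. Consecutive numbers deviated together, so these samples may not be independent and the p-values may be too small.

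Few other listed genes of these pathways could be set beside the 4, and genes outside the lists were not looked for. Lists of 87 genes were drawn up for the steps from 5-aminolevulinate to protoporphyrin IX (17), heme, bilins and siroheme (9), the magnesium branch and chlorophyll (14), chlorophyll breakdown (9), carotenoids (21), and plastid isoprenoid precursors with tocopherol (17). Of the 87, 6 had a probe listing that gene alone, 4 of them the genes described above. The magnesium chelatase genes, the protochlorophyllide reductases, phytoene synthase and the desaturases had none. SIRB (AT1G50170), the ferrochelatase that puts iron into sirohydrochlorin to make siroheme, had 0.158 ± 0.0344 in WT and 0.187 ± 0.0807 in gun1 (normalized intensity, SD, n = 8 each). Its log2 difference was 0.16 (SE 0.24, 95% interval -0.34 to 0.66) and it was not called (limma adjusted p = 0.648). Without scaling SIRB was called higher, at 0.95, where 1425 of 3421 probes were called, 85.5% of them higher in gun1.

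AT1G78620, from the list of precursors and tocopherol, was at 0.433 ± 0.112 in WT and 0.281 ± 0.0835 in gun1 (normalized intensity, SD, n = 8 each). It was lower in gun1 in 7 of 8 numbers, with a log2 difference of -0.64 (SE 0.25) and a limma adjusted p of 0.0568. With the sample number as a block its limma adjusted p was 0.0396. That call was not made with consecutive numbers averaged (limma adjusted p = 0.140), averaged with the pair of numbers as a block (0.0807) or taken as a random block (0.148), and over 28 alternatives this value ran from 0.00811 to 0.581. Leaving out WT replicate 6 gave -0.79 and leaving out gun1 replicate 4 gave -0.73, both past the threshold. These were the lowest WT and the highest gun1 sample, and AT1G78620 was called in only 2 of 16 such fits. Neither SIRB nor AT1G78620 was thus called in the unblocked fit used here. Another 3 probes list a gene of these lists together with a second gene, and none of these was called. The seed storage and senescence lists, 10 genes, had no probe of their own, so RNA of another tissue or stage was not checked.

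For each of the 4 genes, the 3 single-gene probes most like it within genotypes were found by Pearson's r over the 16 samples after the genotype mean was subtracted, among 571 probes above the floor in at least 12 samples. HEMA3 was most like AT2G31800 (r = 0.831), SRX (0.801), which encodes sulfiredoxin, and AT3G12000 (0.785). CHLM was most like AT2G04540 (0.691), AT1G09200 (0.627), a gene for histone H3.1, and AT4G14380 (0.627). Its best match was thus weaker than those of the other 3 genes. AT1G74470 was most like AT4G33760 (0.823), AT1G33250 (0.695) and AT3G13120 (0.674). Z-ISO was most like AT5G63290 (0.818), OTP85 (0.751), an organelle transcript processing gene, and Cpn60beta3 (0.746), a chaperonin subunit gene. These are the highest of 571 values each, over samples that share arrays and consecutive numbers, and none of the 4 genes was among the 3 closest of another.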

How the data were processed

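RNA of 8 WT and 8 gun1 samples was measured on 1-channel arrays, and groups and numbers were taken from the sample titles. The deposited values are intensities, 1 for each of 3439 probes and 16 samples. For dye, scanner, background correction, scaling and genome build, nothing is given in the sources used here. Every sample runs from 0 to 100, and the number of arrays limits the precision.

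Quantile normalization across the 16 samples used limma 3.58.1 (R 4.3.3). A floor of 0.0313, the 5th percentile of the positive values, replaced zeros and anything lower before the log2 transformation. After 20 constant probes were left out, gun1 minus WT was fitted for 3419 probes with lmFit and eBayes, 8 against 8 without covariates, two-sided, and adjusted by Benjamini-Hochberg. A probe with an adjusted p of 0.05 or less is termed called. Folds were computed from log2 differences, and levels are arithmetic means of normalized intensity. The 95% intervals are those of limma for single probes, without adjustment for the number of probes and without pairing by sample number. The platform annotation lists 1 gene for 692 probes, several for 870 and none for 1877. Of the 692, 690 were matched by gene number to RefSeq's gene table of TAIR10.1. That table was used for names and to match the listed genes to probes. The fit was tested on simulated data.

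The members and all lists were chosen with earlier results of these data known. Named are the 4 members, other list genes with a probe of their own, and the 3 probes most like each member. The within-array ratios, the omission of samples 7 and 8, the averaging with a block and the omission of single samples for SIRB and AT1G78620 were chosen after seeing the data. Exact permutation p-values were computed with numpy 2.4.6, figures with matplotlib 3.10.9.

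Equal numbers belong together: deviations from the group mean correlated across probes for equal numbers of the genotypes with r from 0.143 to 0.421. Across genotypes, each of the 8 WT and 8 gun1 samples correlated best with its own number. The mean for different numbers, -0.0338, largely follows from subtracting the group mean and is no separate evidence. The labels give only the numbers, so the pairing comes from these values.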

Additional observations from a re-analysis of the deposited data

Results flagged for a closer look

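Of 12 groups of 8 samples (6 genes in 2 genotypes), 1 had a sample far from the others by Dixon's ratio of gap to range. AT1G78620 was low in WT replicate 6, at a normalized intensity of 0.191 against a median of 0.454 in the other 7 WT samples. Chance flags about 1 in 20 such groups, and no cause was tested.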

How the results depend on the processing

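Z-ISO kept its direction and its call in 14 of 14 alternatives, and HEMA3 in 13 of 14, the exception being a common median (log2 -0.045). Among these alternatives only cyclic loess, the common median and no scaling changed how the arrays were scaled. The rest kept quantile normalization, so the counts say little about scaling. HEMA3 and Z-ISO were both called in all 16 fits without 1 sample. With a common median AT1G74470 was called lower in gun1 (-0.72), CHLM was called (-0.69) and so was AT1G78620 (-0.93). Over all probes 1551 of 3422 were called there, 34.2% of them higher in gun1. Without scaling CHLM turned (0.039, not called) and SIRB was called (0.95). In that fit 1425 of 3421 probes were called, 85.5% of them higher in gun1. CHLM, not called in the report, was also called with the floor at the 20th percentile (-0.60), with 0.1 added to each value (-0.39) and with dim probes left out (-0.60), and AT1G78620 under the first 2 of these (-0.64 and -0.48). With the replicate number as a block AT1G78620 was called (-0.64). The block changed no call of the 4 members, and over all probes it gave 1293 calls against 1088. With consecutive numbers averaged, 592 probes were called, and the 2 calls among the 4 genes were kept. Leaving out single samples gave -0.68 to -0.48 for CHLM, called in 4 of 16 fits, and -0.79 to -0.48 for AT1G78620, called in 2. The correlation of CHLM with Z-ISO in gun1 was 0.477, and -0.381 without the 2 samples farthest from the median of CHLM. The cause of these shifts was not tested. Signal over background limits Z-ISO most, whose WT values lie nearest the floor of 0.0313.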
